A study of Homo sapiens with 6 samples.

Results

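The 4 ID genes (ID1, ID2, ID3 and ID4) and the 3 E protein genes (TCF3, TCF12 and TCF4) were described on 6 expression arrays. The cells were BL2, a human line established from a Burkitt lymphoma, a cancer of germinal-centre B cells. The members were every probe set that the platform annotation gives to one of these 7 genes alone, which made 35 of 54613 tested probe sets and 7 of 19775 named genes. 1 further probe set, shared between ID2 and ID2B in the annotation, was left out. One group had been electroporated with a pool of 4 siRNAs against LEF1, and the other with scrambled siRNA. Both groups therefore went through electroporation with an siRNA, and no array of untreated cells was used here. Each group had 3 biological replicates. The labels name 3 batches, with an array from either group in every batch. The comparison asks which transcripts differ once LEF1, a DNA-binding partner of beta-catenin, is lowered. The hours between electroporation and RNA isolation are not given in the sources used here.

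E proteins are basic helix-loop-helix transcription factors. These proteins pair through the helix-loop-helix part and bind E-box DNA through the basic part, and in B lineage cells they drive immunoglobulin, recombination and B cell receptor genes. ID proteins carry a helix-loop-helix but no basic part, so a pair of an ID protein and an E protein cannot bind DNA. TCF3 (which makes E12 and E47) and its inhibitor ID3 are among the recurrently mutated genes of Burkitt lymphoma. The name TCF is shared with the partners of beta-catenin by accident: TCF7L1 and TCF7L2, relatives of LEF1, were once called TCF3 and TCF4. The annotation's gene identifiers show that the probe sets described here belong to the E protein genes (Entrez 6929, 6938 and 6925).

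ID genes are textbook targets of SMAD proteins after bone morphogenetic protein (BMP) signals, and LEF1 binds its own short DNA word, so the 250 bases before each ID gene's start are shown with the words of these factors that they hold. The sequences are from RefSeq on GRCh38.p14, read 5′ to 3′ on the gene's strand, and capitals mark matches on either strand to 3 motifs. The words CTTTGAA or else CTTTGAT or else CTTTGTA or else CTTTGTT counted as a LEF/TCF motif. GGCGCC or else GGAGCC counted as a SMAD motif. CANNTG counted as an E-box. No 2 matches overlapped in these windows.
ID1, chr20:31605039-31605288, plus strand: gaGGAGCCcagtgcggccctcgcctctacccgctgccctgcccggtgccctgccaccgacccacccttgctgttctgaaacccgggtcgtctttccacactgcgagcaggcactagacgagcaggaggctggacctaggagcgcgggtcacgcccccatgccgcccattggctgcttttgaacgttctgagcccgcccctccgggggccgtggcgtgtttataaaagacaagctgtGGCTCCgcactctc
ID2, chr2:8681806-8682055, plus strand: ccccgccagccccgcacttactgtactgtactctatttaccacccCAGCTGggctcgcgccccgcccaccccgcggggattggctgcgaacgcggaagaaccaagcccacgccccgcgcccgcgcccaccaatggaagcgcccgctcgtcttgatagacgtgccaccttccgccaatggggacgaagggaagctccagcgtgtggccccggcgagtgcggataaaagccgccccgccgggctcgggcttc
ID3, chr1:23559502-23559751, minus strand: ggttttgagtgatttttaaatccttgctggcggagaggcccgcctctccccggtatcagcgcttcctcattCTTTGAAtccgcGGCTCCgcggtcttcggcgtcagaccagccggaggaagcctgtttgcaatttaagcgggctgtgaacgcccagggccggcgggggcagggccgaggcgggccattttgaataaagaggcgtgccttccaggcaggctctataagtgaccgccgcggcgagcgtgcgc
ID4, chr6:19837120-19837369, plus strand: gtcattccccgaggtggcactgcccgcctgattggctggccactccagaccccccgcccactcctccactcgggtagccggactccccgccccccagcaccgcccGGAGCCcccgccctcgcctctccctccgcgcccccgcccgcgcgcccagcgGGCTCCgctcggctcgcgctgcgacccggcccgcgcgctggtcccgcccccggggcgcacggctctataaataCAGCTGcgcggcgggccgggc

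A SMAD word stands in the windows of ID1, ID3 and ID4, and 39.6% of all 35116 RefSeq windows of this length hold one. Only ID3 of the 4 holds a LEF/TCF word (12.0% of all windows), 179 to 173 bases before its start. ID2 and ID4 hold an E-box, as do 61.8% of all windows. Each ID gene and TCF3 had 1 start window in the RefSeq table, against 5 for TCF12 and 10 for TCF4. A match is a description of letters, and these windows leave out more distant elements.

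Values are log2 expression, 1 per probe set and array, and array medians ran from 6.89 to 6.96. The targeted gene, LEF1, was lower in every batch. Its brightest probe set averaged 8.32 ± 0.30 with LEF1 siRNA and 11.04 ± 0.43 with scrambled siRNA (SD, n = 3 each), which left 15.2% of the signal (limma adjusted p = 0.0213 without block and 7.46e-11 with batch as block). The other LEF1 probe sets left more: 28% at 210948_s_at (adjusted p = 0.00418 without block and 8.51e-10 with it) and 81.5% at 221557_s_at (0.284 without block and 0.00695 with it). With LEF1 siRNA 210948_s_at averaged 6.61, below 6.91, the median level of all probe sets. Low values hold mostly background, so its 28% may not measure the RNA that remained. Of 11 measured markers of B cells, not all of them particular to germinal centres, all lay above 7.99, the 75th percentile of all probe sets. So did 0 of 9 T and NK cell markers, 0 of 6 myeloid and 1 of 6 epithelial and stromal markers. With batch as block, 1 of the B cell markers and 1 of the T and NK cell markers fell, 0 rose, and none of the other 12 was called.

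Of the 10 called member probe sets, 6 lay in the ID genes. With batch as block, 6 of the 9 ID probe sets were higher with LEF1 siRNA and 0 lower. Over all tested probe sets, 4.58% were called higher and 1.51% lower. The 6 belonged to ID1, ID2 and ID4, whose transcripts rose by up to 1.55-fold, and ID3 was not called. Of 26 E protein probe sets, 2 were higher (1 each of TCF12 and TCF4) and 2 were lower (both of TCF3). Together 10 of the 35 were called, beside 6.09% of all tested probe sets. The 10 were among 31 member probe sets above 6.91, the median level of all probe sets, and 11.7% of all probe sets above that level were called. The median difference was 0.39 over the ID probe sets and -0.01 over the E protein probe sets, and 0.01 over all tested probe sets. Since these are bulk cultures, a change in the share of cells that express a gene and a change in RNA per cell cannot be told apart.

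Without block, 0 of the 35 passed in limma after adjustment (lowest adjusted p = 0.0837, for ID1), beside 10 of all probe sets, or 0.0183%. At an unadjusted p below 0.05, 7 of the 35 passed without block, and 7.84% of all probe sets did. The members' differences were taken within batches, so calls below are from limma with batch as block unless named otherwise, and rest on 2 residual degrees of freedom with 12.0 borrowed from all probe sets. In 5 of the 35 every LEF1 siRNA array lay above every scrambled siRNA array (7.88% of all probe sets), and in 1 every one lay below (4.59%).

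ID1, an inhibitor first known from blocking muscle differentiation and a direct target of SMAD proteins, rose by the same amount in each batch. Its probe set read 8.40, 8.63 and 8.50 in batches 1, 2 and 3 with LEF1 siRNA, against 7.78, 8.0 and 7.87 with scrambled siRNA. The groups do not overlap, and batch 2 was the highest in both. The batch differences were 0.62, 0.63 and 0.63. The mean difference of 0.63 (95% interval 0.51 to 0.75) is a 1.55-fold rise (adjusted p = 4.05e-05, against 0.0837 without block).

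ID2, which limits E protein activity in lymphocytes and has been described as a Wnt target in colon cells, rose at both probe sets, but varied more between batches than between groups. The dimmer probe set, 201566_x_at, read 10.52, 9.11 and 9.81 with LEF1 siRNA, against 9.87, 8.24 and 9.45 with scrambled siRNA in batches 1, 2 and 3. The LEF1 siRNA array was the higher one in each batch, while the groups overlap since both arrays of batch 2 were low. The mean difference was 0.63 (95% interval 0.46 to 0.80, adjusted p = 0.000428, and 0.859 without block). The letter x in its name marks probes that may also match other transcripts. The brighter probe set, 201565_s_at, read 12.39, 10.89 and 11.62 with LEF1 siRNA, against 11.74, 10.35 and 11.68 with scrambled siRNA. There batches 1 and 2 were higher by 0.64 and 0.54, and batch 3 differed by -0.06. Its mean difference of 0.38 passed narrowly (adjusted p = 0.0383, and 0.941 without block), and did not pass without batch 1 (0.24, adjusted p = 0.0816) or batch 2 (0.29, adjusted p = 0.26).

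ID3, the inhibitor of TCF3 that is mutated in Burkitt lymphoma, was not called. It read 11.47, 11.99 and 12.14 with LEF1 siRNA, against 11.39, 11.72 and 12.12 with scrambled siRNA. All 3 batches were higher, by 0.08, 0.27 and 0.03, and the groups overlap almost wholly. The mean difference of 0.13 had a 95% interval of -0.01 to 0.26 with batch as block (adjusted p = 0.334) and of -0.36 to 0.61 without block (adjusted p = 0.966). Whether its change differed from that of the other ID genes was not tested.

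ID4, a family member often silenced by methylation in leukaemia and lymphoma, rose at 3 of 5 probe sets. The brightest, 209291_at, read 10.17, 9.81 and 9.91 with LEF1 siRNA, against 9.70, 9.19 and 9.36 with scrambled siRNA. Its difference was 0.54 (95% interval 0.42 to 0.67, adjusted p = 0.000167, and 0.273 without block). Probe set 209292_at read 8.72, 8.28 and 8.32 with LEF1 siRNA, against 8.18, 7.60 and 7.79 with scrambled siRNA. In both probe sets the groups do not overlap, and batch 1 was the highest in either group. The difference at 209292_at was 0.58 (95% interval 0.46 to 0.71, adjusted p = 0.000113), and that at 226933_s_at was 0.39 (95% interval 0.25 to 0.52, adjusted p = 0.00234). The last lay at 7.57 ± 0.09 with LEF1 siRNA and 7.18 ± 0.05 with scrambled siRNA (SD, n = 3 each), again without overlap. The remaining ID4 probe sets were 209293_x_at, which differed by 0.14 (adjusted p = 0.223), and 229386_at, which differed by 0.00 at a level of 6.50, below the median of all probe sets (adjusted p = 0.984).

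**Figure D1:**
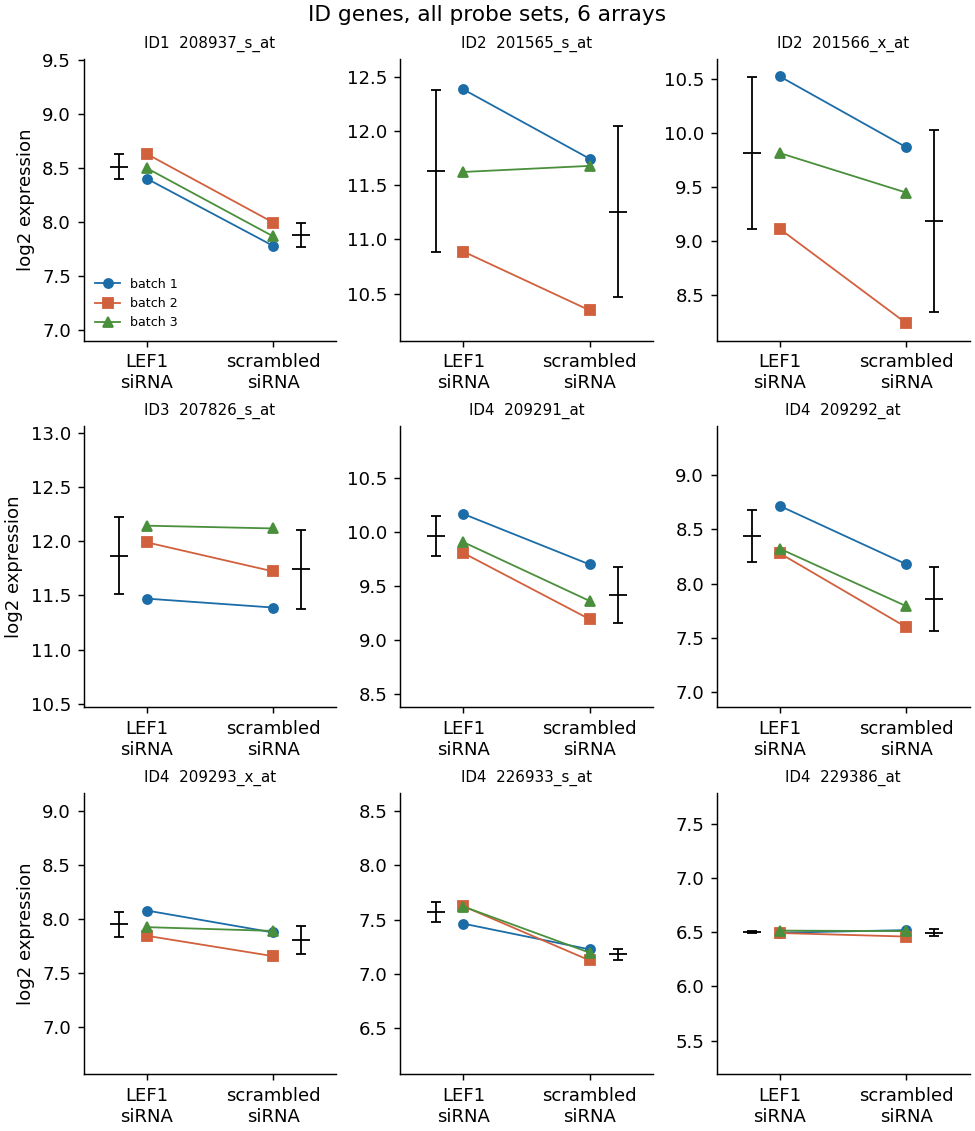
Log2 expression of the 9 ID probe sets on 6 arrays, LEF1 siRNA left and scrambled siRNA right in each panel. Coloured points joined by lines are the arrays of 1 batch, black bars are mean ± SD over 3 arrays, and every panel spans a range of the same width. The lines of ID1 run in parallel (differences of 0.62 to 0.63), those of ID2 lie far apart between batches, and ID3 is nearly level (0.03 to 0.27).

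TCF3, the E protein gene whose products E12 and E47 are central to B cell development, fell at 2 of 14 probe sets, and 12 were not called. Probe set 215260_s_at read 10.58, 10.54 and 10.49 with LEF1 siRNA, against 10.65, 11.36 and 10.90 with scrambled siRNA. The LEF1 siRNA arrays lay close together below all scrambled siRNA arrays, of which batch 2 was the highest. Its difference was -0.44 (95% interval -0.65 to -0.23, adjusted p = 0.0166, and 0.501 without block), made of -0.07, -0.83 and -0.42 in batches 1, 2 and 3. Probe set 209151_x_at read 10.06, 9.92 and 9.49 with LEF1 siRNA, against 10.06, 10.73 and 9.89 with scrambled siRNA. There batch 1 was level at 0.00, and batches 2 and 3 differed by -0.81 and -0.40. Its mean difference was -0.40 (95% interval -0.63 to -0.18, adjusted p = 0.0358, and 0.769 without block). Both calls rested on batch 2: without it the differences were -0.25 and -0.20 (adjusted p = 0.165 and 0.352).

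The brightest TCF3 probe set, 209153_s_at, read 12.36, 12.22 and 12.50 with LEF1 siRNA, against 12.40, 12.27 and 12.50 with scrambled siRNA. The arrays of each batch were nearly level, and the difference was -0.03 (95% interval -0.15 to 0.09, adjusted p = 0.865). The next, 213730_x_at, averaged 11.83 ± 0.07 with LEF1 siRNA and 12.03 ± 0.14 with scrambled siRNA (SD, n = 3 each) and differed by -0.20, lower in all 3 batches (adjusted p = 0.0605). The 12 uncalled TCF3 probe sets differed by -0.20 to 0.07, with adjusted p from 0.0605 to 0.976. Over all 14 the median difference was -0.10.

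TCF12, which encodes the E protein HEB, rose at its brightest probe set. This probe set, 208986_at, read 10.01, 10.10 and 10.12 with LEF1 siRNA, against 9.74, 9.58 and 9.71 with scrambled siRNA. All LEF1 siRNA arrays lay above all scrambled siRNA arrays, and the batch differences were 0.27, 0.52 and 0.41. The mean difference of 0.40 (95% interval 0.27 to 0.54) is a 1.32-fold rise (adjusted p = 0.00172, and 0.132 without block). The other 3 TCF12 probe sets differed by 0.03 to 0.13 (lowest adjusted p = 0.298), and 2 of them lay below the median level of all probe sets.

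TCF4, which encodes E2-2, known as the defining factor of plasmacytoid dendritic cells and also expressed in B cells, passed at 1 of 8 probe sets. This one, 213891_s_at, read 11.81, 11.54 and 12.21 with LEF1 siRNA, against 11.62, 11.42 and 11.85 with scrambled siRNA. The LEF1 siRNA array was the higher one in each batch, by 0.19, 0.13 and 0.36, and the groups overlap. The mean difference of 0.23 (95% interval 0.09 to 0.36) passed narrowly (adjusted p = 0.0446, and 0.873 without block), and did not pass without batch 2 (0.28, adjusted p = 0.0633) or batch 3 (0.16, adjusted p = 0.274). Without batch 2 the difference itself was larger, not smaller. The brightest TCF4 probe set, 212386_at, read 12.01, 11.74 and 12.33 with LEF1 siRNA, against 11.95, 11.61 and 12.30 with scrambled siRNA. It differed by 0.08 (95% interval -0.04 to 0.20, adjusted p = 0.583). The 7 uncalled TCF4 probe sets, all above the median level, differed by -0.13 to 0.12, and their 95% intervals together spanned -0.26 to 0.26. Among them 212382_at was lower in all 3 batches, opposite to the called probe set (-0.13, 95% interval -0.258 to -0.0015, adjusted p = 0.285).

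**Figure D2:**
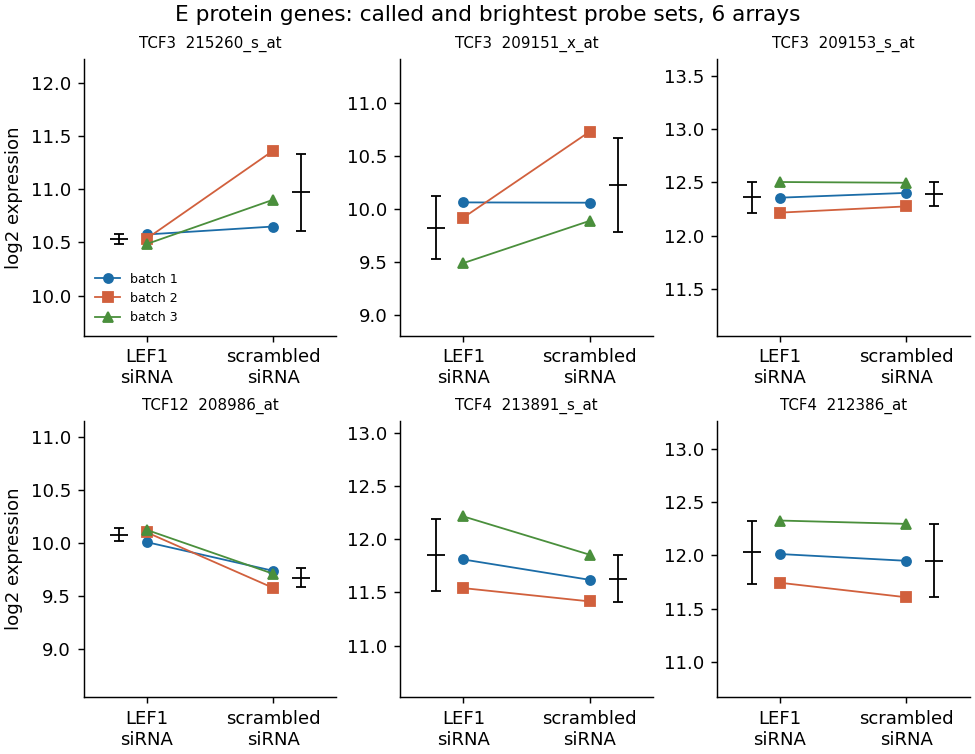
Log2 expression of the called and the brightest probe sets of TCF3, TCF12 and TCF4 on 6 arrays, LEF1 siRNA left and scrambled siRNA right. Coloured points joined by lines are the arrays of 1 batch, and black bars are mean ± SD over 3 arrays. The TCF3 probe sets that fell do so mainly in batch 2 (-0.83 and -0.81), while the brightest TCF3 probe set is level (-0.03) and TCF12 is higher in each batch.

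**Figure D3:**
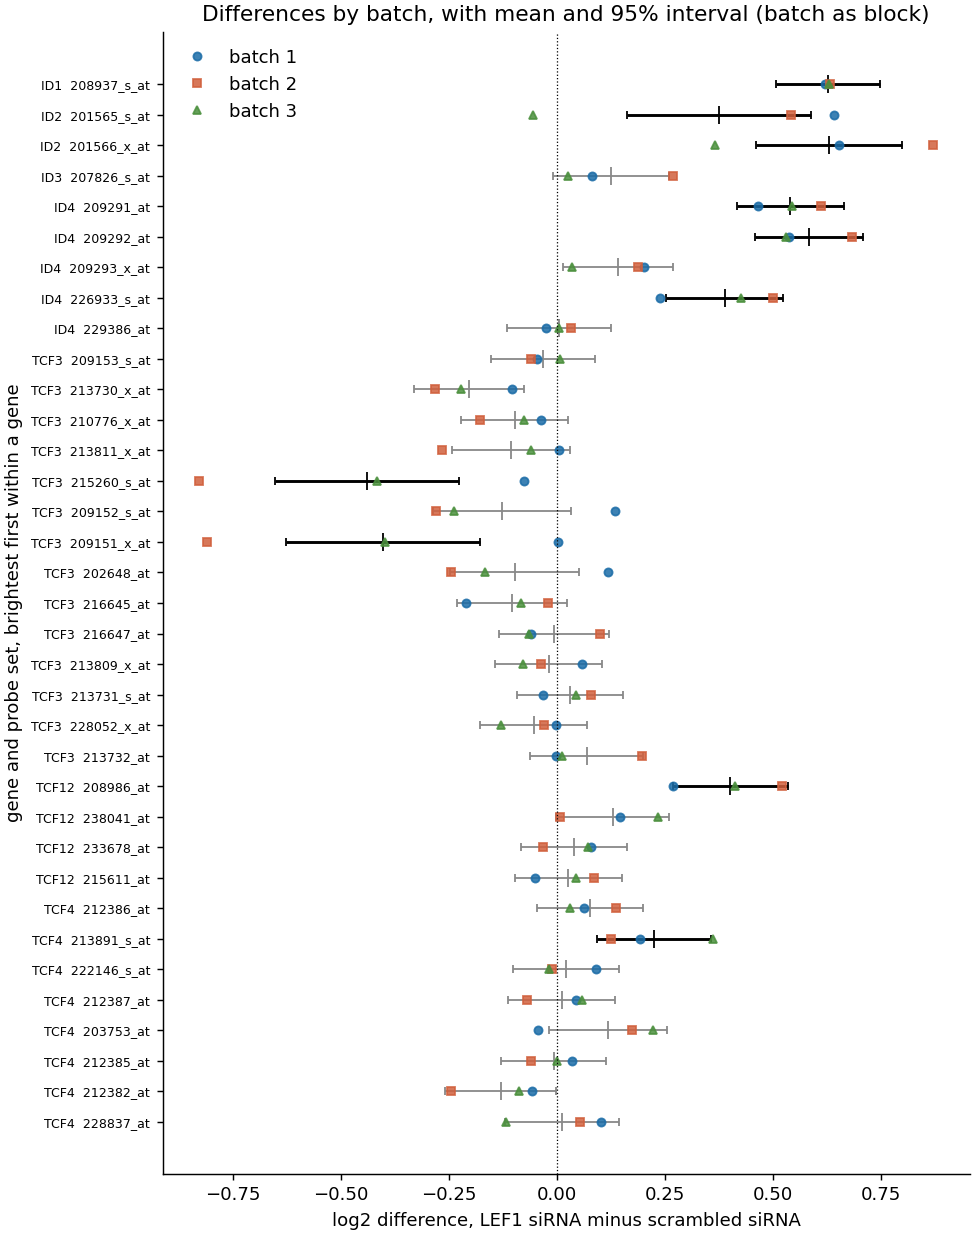
Log2 difference, LEF1 siRNA minus scrambled siRNA, of the 35 probe sets, brightest first within each gene. Coloured points are the 3 batch differences, and bars are the mean with its unadjusted 95% interval from limma with batch as block, black where called. The 6 called ID probe sets lie between 0.38 and 0.63. Apart from the 4 called, the E protein probe sets lie between -0.20 and 0.13, those of TCF3 mostly below 0 (median -0.10 over all 14).

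Whether probe sets of 1 gene moved by different amounts was tested with limma's diffSplice, an F test chosen after the values were seen, over 6026 genes with several probe sets above the median level. It called 8.21% of these 6026 genes. Of the 5 members it could test, ID4 passed (4 probe sets, adjusted p = 0.0121), and TCF12, TCF4, TCF3 and ID2 did not (adjusted p = 0.082, 0.118, 0.141 and 0.295). The unlike values of TCF3 probe sets are thus not shown to differ from each other by this test. Probe sets read different stretches of a transcript with unlike brightness, and the part of isoforms or of probe behaviour was not tested.

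The scaling of the arrays changed which E protein probe sets passed more than which ID probe sets did. After quantile normalization and after cyclic loess, the same 10 member probe sets passed, beside 6.07% and 5.93% of all probe sets. With equal medians 8 of the 10 passed (5.1% of all), without 201565_s_at of ID2 (adjusted p = 0.0519) and 213891_s_at of TCF4 (0.0951). Scaling to the poly-A spike-ins, which are bacterial transcripts added to the RNA, moved the median of all probe sets by -0.12 and called 16.1% of them. Under it 6 member probe sets were higher and 9 lower: the same 2 were lost (adjusted p = 0.0587 for ID2 and 0.223 for TCF4). In addition 7 passed as lower, 6 of TCF3 and 212382_at of TCF4. The 7 lay between -0.32 and -0.22 under it, which includes the common shift. ID1 was still higher by 0.51 (adjusted p = 2.71e-05), the brightest ID4 probe set by 0.42 and TCF12 by 0.28, and ID3 was level at 0.01. None of the 10 calls changed sign under these 4 scalings. The split of calls over all probe sets also moved with the scaling: 2501 were higher and 827 lower as deposited, while the share that was higher fell to 11% under the spike-in scaling and lay at 56.2%, 60.1% and 66.2% under quantile, loess and median scaling.

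**Figure D4:**
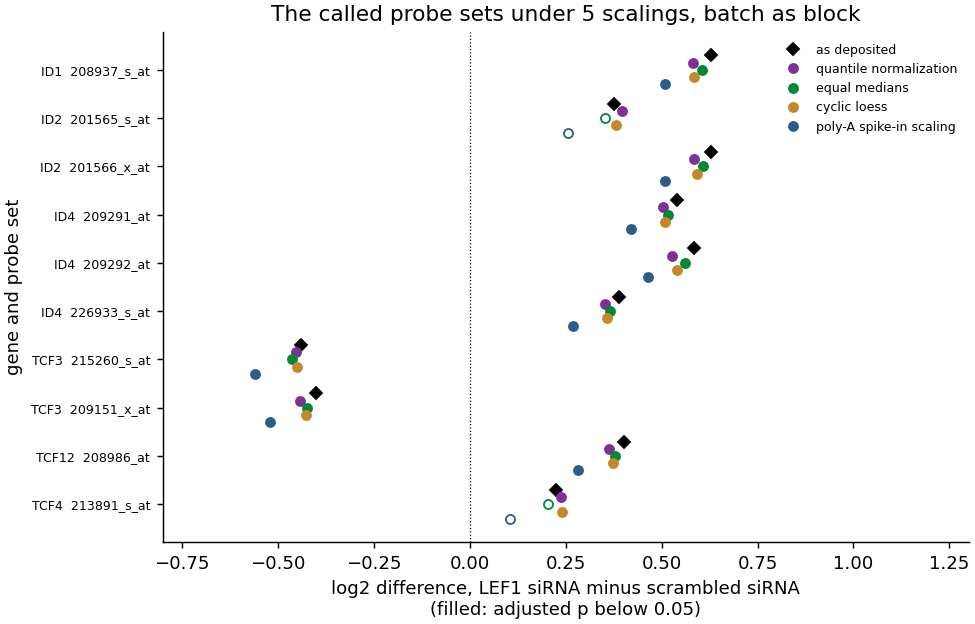
Log2 difference, LEF1 siRNA minus scrambled siRNA, of the 10 called probe sets as deposited (black diamonds) and under 4 other scalings (coloured points, filled where the adjusted p is below 0.05). Poly-A spike-in scaling lies furthest to the left by a near constant amount, and ID2 201565_s_at and TCF4 213891_s_at are open under it and with equal medians.

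The genes most like each called member were found by Pearson's correlation over the 6 arrays, among 23061 probe sets of 1 gene above the median level. For ID1 these were ADAM28, TECPR1 and PPP1R21 (r = 0.996, 0.996 and 0.995), for ID2 ANP32A, COPS2 and CNPY2 (0.998, 0.997 and 0.994), and for ID4 C5orf24, ZNF140 and NADK2 (0.996, 0.994 and 0.991). For TCF3 they were SRM, EYA3 and KLF16 (0.992, 0.99 and 0.989), for TCF12 ANKRD44, FHIT and CEP19 (0.996, 0.995 and 0.993), and for TCF4 EIF3A, LINC00621 and URM1 (0.997, 0.994 and 0.993). The arrays share 3 batches, so these values describe batch and group together and carry no test. No other member was among them.

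Partners and cofactors of E proteins were read next, at the brightest probe set of each gene, where 6.73% of all genes were called higher and 1.7% lower. Without block, 0 genes of the lists passed in limma, so all list calls rest on the block. The lists here and below were chosen with earlier results of these data known, so their counts are not tests. Of 9 measured class II helix-loop-helix partners, LYL1, a blood stem cell factor, passed at 0.21 (adjusted p = 0.0383), but under none of the other scalings, and 0 fell. Without batches 1, 2 and 3 its difference was of like size (0.22, 0.23 and 0.19), with adjusted p of 0.0777, 0.116 and 0.141. Of 11 cofactors and turnover factors of E proteins, 4 rose and 0 fell, with a median difference of 0.08 against 0.02 over all genes. Above the median level of all probe sets, where 11.7% of probe sets were called in either direction, lay 10 of the 11. LMO2, the bridge that joins E proteins and TAL1 or LYL1 in one complex, averaged 7.68 ± 0.17 with LEF1 siRNA and 7.12 ± 0.12 with scrambled siRNA (SD, n = 3 each), a difference of 0.55 (adjusted p = 0.00045). CBFA2T3, a corepressor of the ETO family that binds E proteins, rose by 0.39 and the histone acetyltransferase gene EP300 by 0.38 (adjusted p = 0.00535 and 0.00671). Without batch 2 the EP300 difference was 0.26 (adjusted p = 0.0799). LMO2 and EP300 each had 1 of 2 probe sets called. KAT2B, another acetyltransferase gene, rose by 0.26 (adjusted p = 0.0342), which did not pass under poly-A spike-in scaling (adjusted p = 0.157), under quantile normalization (0.22, adjusted p = 0.0525) or without batch 2 (0.16, adjusted p = 0.342). SKP2, which marks E proteins for degradation, was not called at its brightest probe set (-0.03, adjusted p = 0.856). Another, 210567_s_at, fell by 0.41 (adjusted p = 0.00383) and is named after its value was seen.

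ID proteins are short-lived. Of 6 genes of their turnover, 3 fell and 0 rose, beside 1.7% and 6.73% of all genes. Their median difference was -0.21. All 6 lay above the median level of all probe sets, where 11.7% of probe sets were called in either direction. USP1, which removes ubiquitin from ID proteins, averaged 11.76 ± 0.32 with LEF1 siRNA and 12.02 ± 0.29 with scrambled siRNA (SD, n = 3 each), and differed by -0.26 (adjusted p = 0.017). CDC20 and UBE2C, which work with the anaphase-promoting complex, differed by -0.36 and -0.26 (adjusted p = 0.00185 and 0.0254). The USP1 and UBE2C calls did not pass without batch 2 (-0.23 and -0.18, adjusted p = 0.136 and 0.258). Both were also lost on all 6 arrays with an intensity trend in the prior variance. All 3 genes also serve other proteins, CDC20 and UBE2C in mitosis and USP1 in DNA repair, so the list is not specific to ID proteins. CDC27, a subunit of that complex, was not called at its brightest probe set (-0.16, adjusted p = 0.286), but 3 of its 4 probe sets were lower, and 217881_s_at fell by 0.58 (adjusted p = 0.000167), a value singled out after it was seen. Neither FZR1, which steers ID proteins to that complex, nor the USP1 partner gene WDR48 was called.

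On the route from BMP receptors to ID transcription, 4 of 25 measured genes rose and 1 fell, beside 6.73% and 1.7% of all genes. Of the 25, 20 lay above the median level of all probe sets, where 11.7% of probe sets were called in either direction. The median difference was 0.06. BMPR2, the type II BMP receptor gene, averaged 8.16 ± 0.09 with LEF1 siRNA and 7.63 ± 0.03 with scrambled siRNA (SD, n = 3 each), a rise of 0.54 (adjusted p = 0.000244). SKIL, which encodes the SMAD-binding corepressor SnoN, rose by 0.65 (adjusted p = 0.00015). Of the SMADs that receive BMP signals, SMAD1 fell, at 9.90 ± 0.21 with LEF1 siRNA against 10.33 ± 0.37 with scrambled siRNA (SD, n = 3 each; difference -0.43, adjusted p = 0.00266). SMAD5 and SMAD9 passed as higher, at 0.28 and 0.24 (adjusted p = 0.0313 and 0.0431), but neither did under poly-A spike-in scaling (0.125 and 0.206), and SMAD9 passed under no other scaling. SMAD5 passed after quantile normalization and cyclic loess but not with equal medians (0.25, adjusted p = 0.0517). Without batch 2 they were 0.24 and 0.18 (adjusted p = 0.199 and 0.308), and SMAD5 was also lost without batch 1 (0.20, adjusted p = 0.128) and SMAD9 without batch 3 (0.21, adjusted p = 0.0943). SMAD9 lies outside the rule for named genes and was named after its value was seen. Not all probe sets of these genes were called. Called as higher were 2 of 6 for BMPR2, 2 of 5 for SKIL, 1 of 5 for SMAD5 and 1 of 2 for SMAD9. For SMAD1, 1 of 3 was called as lower. No BMP ligand or SMAD6 or SMAD7 was called. SMURF1 was not called at its brightest probe set (adjusted p = 0.999). Its dimmer 232665_x_at, named after its value was seen, was higher by 0.31 at a level of 6.47 (adjusted p = 0.0079). That call did not pass under poly-A spike-in scaling (adjusted p = 0.0591) or without batch 2 (0.24, adjusted p = 0.0915).

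Among 11 other regulators of ID transcription, 2 rose and 0 fell, beside 6.73% and 1.7% of all genes. Of the 11, 9 lay above the median level of all probe sets, where 11.7% of probe sets were called in either direction. The median difference was 0.03. NOTCH2, a receptor of marginal-zone B cells, rose by 0.49 at 212377_s_at and by 0.42 at its brightest probe set (adjusted p = 0.000244 and 0.00073). EGR1, an immediate early factor that induces ID3 in mouse thymocytes, differed by 0.43 (adjusted p = 0.00716, and 0.96 without block), and by 0.74, 0.39 and 0.16 in batches 1, 2 and 3. Its level spread widely between batches in either group (SD 1.25 with LEF1 siRNA and 0.99 with scrambled siRNA). In batch 1 EGR1 read 9.08 with LEF1 siRNA and 8.35 with scrambled siRNA. Batches 2 and 3 read 6.89 and 6.96 with LEF1 siRNA, against 6.50 and 6.80, near or below 6.91, the median level of all probe sets. Of their probe sets, 2 of 4 were called for NOTCH2 and 1 of 3 for EGR1.

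Of 25 measured E protein targets of B lineage cells, 6 fell and 2 rose, beside 1.7% and 6.73% of all genes. The list was chosen with earlier results of these data known, so this count is not a test. Of the 25, 22 lay above the median level of all probe sets, where 11.7% of probe sets were called in either direction. The median difference was -0.07 against 0.02 over all genes. IGLL1, the lambda 5 surrogate light chain gene of precursor B cells, averaged 9.0 ± 0.22 with LEF1 siRNA and 10.19 ± 0.35 with scrambled siRNA (SD, n = 3 each), a difference of -1.19 (adjusted p = 4.95e-07). DNTT, which encodes the terminal transferase that adds bases at V(D)J joints, fell by 0.62 (adjusted p = 9.68e-05). E2F2, a driver of S phase entry, fell by 0.54 at 207042_at and by 0.38 at its brightest probe set (adjusted p = 0.000179 and 0.00303), and CCND3, the cyclin D3 gene, fell by 0.47 (adjusted p = 0.00052). Called as lower were 2 of 3 probe sets for DNTT, 3 of 3 for E2F2 and 1 of 2 for CCND3. RAG2 and IL7R, named after their values were seen, also fell. RAG2, a subunit of the recombinase, differed by -0.43 at a low level (6.58 ± 0.17 with LEF1 siRNA and 7.01 ± 0.31 with scrambled siRNA; SD, n = 3 each; adjusted p = 0.00167). IL7R, a cytokine receptor gene of precursor B cells, differed by -0.34 (adjusted p = 0.0155), and by -0.20 without batch 1 (adjusted p = 0.113). The 2 that rose, likewise named after the fact, were PTPN6, which encodes the phosphatase SHP-1 and is held down by TCF3 in Burkitt cells, by 0.42 and the B cell receptor kinase gene BTK by 0.35 (adjusted p = 0.00112 and 0.00252). CXCR4 and EBF1 were not called at their brightest probe sets (-0.12 and -0.08, adjusted p = 0.36 and 0.648). Other probe sets, named after their values were seen, differed by -0.38 and -0.22 (211919_s_at and 229487_at, adjusted p = 0.00198 and 0.0325). The EBF1 one did not pass without batch 2 (-0.19, adjusted p = 0.219) or batch 3 (-0.23, adjusted p = 0.0502). After scaling to the spike-ins, where 2757 of all 19775 genes were lower and 543 higher, 11 targets were lower and 2 higher. Several of these genes also answer to other B lineage factors, and whether ID or E protein levels bear on them was not tested.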

How the data were processed

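Total RNA from BL2 cells (0.3 µg a sample) was amplified and biotin-labelled by a 3' IVT method, per the labels' protocols, so values read mainly 3' ends. The deposited values are log2 expression, 1 for each of 54675 probe sets and 6 arrays. That they are log2 was read from their range of 5.45 to 15.0. Background correction, normalization and summarisation are not given in the sources used here. Detection calls were not used here, and low values hold mostly background.

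The 62 control probe sets were left out. Names came from the platform annotation, checked through Entrez IDs against RefSeq (GRCh38.p14), which changed 0 symbols. Differences are LEF1 siRNA minus scrambled siRNA, fitted over 54613 probe sets with limma 3.58.1 (R 4.3.3), without block and with labelled batch as block, two-sided, with Benjamini-Hochberg adjustment over all of them and a threshold of 0.05. The labels put 1 array of each group in each batch, and arrays of the same batch deviated from their group means together (r = 0.477, 0.493 and 0.621, across probe sets, which are not independent). Intervals are 95% and unadjusted. The fits were tested on simulated data. Named were all members, LEF1, up to 4 called genes of each list with the smallest p at any called probe set, and 3 pattern neighbours for each called member. The members and lists were chosen with earlier results of these data known. A gene of a list counts as called by its brightest probe set. The number of arrays limits the precision. Alternatives covered the block, 4 scalings, dim probe sets, 1 probe set per gene, the prior variance, the threshold and leaving out each array or batch. The diffSplice test and the alternatives for the lists were added after the data were seen. Groups and batches came from the sample labels. Figures used matplotlib 3.10.9 in Python 3.11.15.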

Additional observations from a re-analysis of the deposited data

How the results depend on the processing

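The batch decided the calls: over all probe sets, 3328 passed with the replicate block and 10 without it, and of the 35 ID and E protein probe sets 10 passed with it and 0 without it. Without block the count over all probe sets was 23 after quantile normalization and after cyclic loess, 5 with 1 probe set per gene (fewer tested), 6 with an intensity trend and 2 at a threshold of 0.01. Leaving out single arrays or batches gave 0 to 8. The 0 arose without LEF1 siRNA replicate 2, batch 1 or batch 2, where limma had 3467, 3073 and 2366 probe sets at an unadjusted p below 0.05. Over all probe sets, batch as block gave 8797 under poly-A spike-in scaling, 1949 with 1 probe set per gene, 1418 at a threshold of 0.01, and 1407 to 3880 when an array or batch was left out, the lowest without either or both arrays of batch 2. The members called were then 4 with 1 probe set per gene (7 tested), 6 at a threshold of 0.01 and 6 to 11 on leaving out, the lowest again without batch 2. With 1 array gone, its partner adds nothing under the block, so leaving out either or both gives the same difference. The ID1 probe set, ID2 201566_x_at, the 3 ID4 probe sets and TCF12 208986_at kept their call under every alternative that kept the block and tested them at the threshold of 0.05. The ID2 201565_s_at, TCF3 and TCF4 calls did not, and TCF4 213891_s_at was also lost with an intensity trend. The list counts moved under the same alternatives with the block. Lower turnover genes of ID proteins went from 3 to 1 with an intensity trend and to 5 under poly-A spike-in scaling. Under that scaling lower BMP route genes went from 1 to 4, and lower E protein targets from 6 to 11. Over all 19775 genes, the same scaling gave 2757 lower and 543 higher, against 336 and 1331 as deposited. Higher BMP route genes went from 4 to 2 under it, with equal medians or without batch 2. Higher E protein cofactors went from 4 to 2 without batch 2. The 1 class II partner call was lost under 14 alternatives. Across lists, higher counts lay between 0 and 4, and lower counts apart from the 11 between 0 and 6. With batch as block, no called member or list gene changed sign, whereas up to 10 uncalled members did, under poly-A spike-in scaling. The ID2 201565_s_at difference did turn negative without block when LEF1 siRNA replicate 1 or scrambled siRNA replicate 2 was left out. The cause of these changes was not tested. Signal over background could not be read from the deposited values, so small differences of dim probe sets, such as the 4 members below the median level, may not be detectable here.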
